A study of Mus musculus with 4 samples.

Results

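The genes of copper and platinum handling followed here, 9 in all, were chosen by symbol from the deposited table: Slc31a1 for uptake and its relative Slc31a2, Atox1 and Ccs for delivery inside the cell, Atp7a and Atp7b for export, Mt1 and Mt2 for storage, and the regulator Mtf1. All 9 were found among the 22063 genes listed. They were measured by mRNA sequencing of ID8, a mouse ovarian cancer cell line that grew out of ovarian surface epithelium, in cells with a control shRNA (shCtrl, labelled wild type, 2 libraries) and in cells with an shRNA against USP9X (shUSP9X, labelled USP9X knockdown, 2 libraries), with no other genotype or agent named for either. No drug or oxygen condition is named in the labels, and no label names cisplatin, so the data give the resting difference between both cell populations and no response to platinum. In the study shRNAs were delivered by lentivirus, and the labels do not say whether the shUSP9X libraries share a hairpin. They also do not say whether the 2 libraries of a group came from separate cultures, so p-values measure only the spread between these libraries, which may be technical. Estimated counts summed to 17232006 and 15611363 in shCtrl and to 19978889 and 17021261 in shUSP9X.

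Copper is needed by a few enzymes and is toxic when free, so cells pass it from protein to protein. The plasma membrane channel CTR1 (Slc31a1) lets it in, the chaperones ATOX1 and CCS carry it to the copper ATPases and to superoxide dismutase, and the ATPases ATP7A and ATP7B pump it into the secretory pathway or out of the cell. Metallothioneins are small cysteine-rich proteins that bind zinc and copper, and MTF1 is the zinc-sensing transcription factor that switches their genes on through metal response elements. Cisplatin reacts with the same sulphur-rich sites, and these proteins are known in ovarian cancer for their links to platinum uptake, export and binding.

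Before the comparison, the libraries were checked against their labels. Usp9x, the targeted gene, was counted 5169 and 4453 times in the shCtrl libraries and 390 and 346 times in the shUSP9X libraries, in the direction of the labels. The log2 fold change of -3.85 had a standard error of 0.06 (edgeR adjusted p = 4.7e-26), and it was -2.32 once trends with GC content and transcript length were removed. Of 8 markers of ovarian surface epithelium and mesothelium, 7 were tested, each at a mean of at least 65.8 CPM in both groups. Krt8, a keratin, had 319 ± 7.06 CPM (counts scaled to the TMM-normalized library total; mean ± SD, n = 2) in shCtrl and 602 ± 0.277 in shUSP9X, and Krt7 had at most 3 counts in any library. Of the 8, 3 were lower (Wt1, Msln and Cdh2, log2 fold changes -0.52, -0.47 and -0.50) and 3 higher in shUSP9X, with a median of 0.05 over the 7 tested, beside 33.6% lower and 33.8% higher among all genes. Once trends with GC content and transcript length were removed, 5 were lower and 2 higher (median -0.17), beside 27.5% and 35.8% of all genes, and Krt19 went from 0.12 to -0.17.

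One library stood apart. The hepatocyte markers Alb, Apoa1 and Ttr had 635, 47 and 29 counts in shUSP9X replicate 2, against 0, 3 and 0 in shUSP9X replicate 1, 3 or fewer in shCtrl replicate 1, and 0 in shCtrl replicate 2. In that library 36 genes had at least 10 counts and at most 3 in each other library, against 14, 11 and 4 genes in shCtrl replicate 1, shCtrl replicate 2 and shUSP9X replicate 1. Most of the 36 were genes of secreted liver proteins, such as Serpina3k (93 counts), Ahsg (49) and Fgb (34), and together they took 1556 counts, 0.00914% of the library. These genes were picked out after their values had been seen. The liver is rich in copper transporters and metallothioneins, so results are given below also without shUSP9X replicate 2, where they change. In shCtrl replicate 2, Tyrp1 and Dct, genes of pigment cells, had 113 and 31 counts against 0 in the other libraries.

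Of 10 leukocyte markers 5 were tested, 4 were higher in shUSP9X and 0 lower, beside 33.8% and 33.6% of all genes. These were, with their shUSP9X counts, Itgam (72 and 75), Adgre1 (58 and 59), Ptprc (29 and 18) and Csf1r (17 and 13). All 4 had 0 counts in both shCtrl libraries and so entered the test through shUSP9X, the group in which they were high. The summed level of the list was 4.38 and 4.30 CPM in shCtrl and 14.9 and 15.1 CPM in shUSP9X, and its most abundant member, Cd68, did not pass the test (log2 fold change 0.37, edgeR adjusted p = 0.13). C1qa and Cd3e were at 0 in all libraries, and Lyz2, S100a8 and S100a9 had at most 2 counts. Of 3 endothelial markers, Pecam1 alone was tested and was not called (log2 fold change 0.04), and Cdh5 and Kdr were at 0. Among fibroblast and smooth muscle markers, Pdgfra, a growth factor receptor gene, fell from 14.6 ± 1.48 to 2.02 ± 0.420 CPM (log2 fold change -2.87, edgeR adjusted p = 6.6e-13), Acta2 was not called (log2 fold change -0.25) and Pdgfrb was at 0. The part of such cells or their RNA in the results below was not tested. In bulk RNA of this kind, fewer cells of a type and less RNA per cell cannot be told apart.

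At an adjusted p below 0.05, 5 of the 9 genes were lower in shUSP9X cells and 0 were higher (edgeR's quasi-likelihood test, Benjamini-Hochberg adjustment over 11448 genes). Among the 5 is Atp7b, which entered the test through shCtrl, the group in which it was high. With at least 10 counts asked of every library it was not tested, and 4 of the other 8 were lower and 0 higher. Slc31a1, Slc31a2, both copper ATPase genes and Mt1 were lower, whereas the 2 chaperone genes, Mt2 and Mtf1 were not called. At the same threshold 33.6% of all tested genes were lower and 33.8% higher. The study's methods name DESeq2 with p below 0.05 and more than a 1.5-fold change. At that cutoff, set here on edgeR's p before adjustment, 3 of the 9 were lower (Slc31a2, Atp7a and, with the same limit, Atp7b) and 0 higher, beside 18.7% and 10.8% of all genes. The median log2 fold change of the 9 genes was -0.21, against 0.00 for all tested genes. This median takes in Atp7b and so has the same limit. Before adjustment, too, 0 of the 9 were higher by edgeR at p below 0.05, and after adjustment 0 were by DESeq2. Once the trends of each library with GC content and transcript length were removed, however, 4 were lower and 2 higher, and Slc31a1 turned from lower to higher (0.17, edgeR adjusted p = 0.0074). Without shCtrl replicate 1, 1 gene, Ccs, was higher. Without shUSP9X replicate 2, 4 genes were lower and 0 higher.

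**Figure D1:**
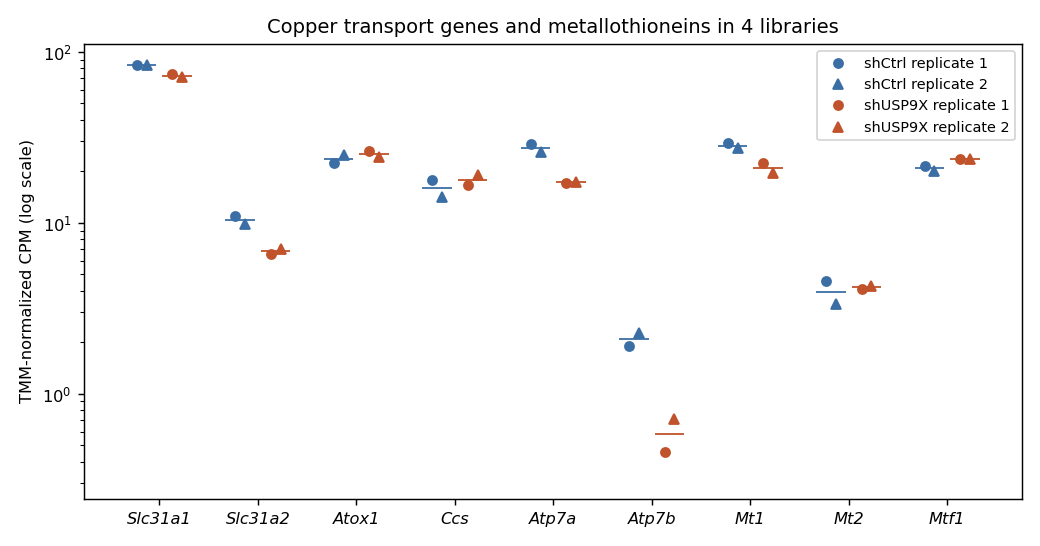
TMM-normalized CPM (vertical axis, log scale) of the 9 genes (horizontal axis) in each library, with blue symbols for shCtrl, orange for shUSP9X, circles for replicate 1, triangles for replicate 2 and short lines for group means. For Slc31a1, Slc31a2, Atp7a, Atp7b and Mt1 both orange symbols lie below both blue ones, and Atp7b is the lowest gene in both groups.

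Slc31a1 (ENSMUSG00000066150, GRCm38 chromosome 4, 62360727 to 62391769) encodes CTR1, the main copper importer. Its level was 83.7 and 84.1 CPM in the shCtrl libraries and 73.8 and 71.0 CPM in the shUSP9X libraries. The groups did not overlap, as for 41.0% of all genes in this direction, and the difference was small. The log2 fold change of -0.21 had a standard error of 0.06 (edgeR adjusted p = 0.0017), for a level 0.863 of that in shCtrl (95% interval 0.797 to 0.935). The call did not hold without shUSP9X replicate 2 (log2 fold change -0.18, edgeR adjusted p = 0.052), and the direction turned once the trends with GC content and transcript length were removed (0.17, edgeR adjusted p = 0.0074). Slc31a2 (ENSMUSG00000066152, chromosome 4, 62262562 to 62298411) lies 62315 bases away and encodes CTR2, a related protein found mostly on internal membranes. It had 11 and 9.87 CPM in shCtrl and 6.58 and 7.0 CPM in shUSP9X. Both shUSP9X libraries were again below both shCtrl libraries, by a larger fold. The change was -0.62 on the log2 scale, with a standard error of 0.16 (edgeR adjusted p = 0.0010), and it stayed between -0.85 and -0.53 over 15 alternatives. Counts of Slc31a1 were 7.60 and 8.52 times those of Slc31a2 in shCtrl and 11.2 and 10.1 times in shUSP9X, without overlap. The exact permutation test gave p = 0.333 (two-sided), the smallest that 2 libraries against 2 allow.

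The chaperone genes gave no call. Atox1 (ENSMUSG00000018585, chromosome 11, 55446641 to 55461239), whose protein hands copper to both ATPases, had 22.4 and 24.9 CPM in shCtrl and 26.3 and 24.2 CPM in shUSP9X. The groups overlapped, and the log2 fold change of 0.10 had a 95% interval of -0.11 to 0.30 (edgeR adjusted p = 0.39). Ccs (ENSMUSG00000034108, chromosome 19, 4825366 to 4839332), whose protein loads superoxide dismutase with copper, had 17.7 and 14.1 CPM in shCtrl and 16.5 and 19.0 CPM in shUSP9X. These groups overlapped too, with a log2 fold change of 0.15 and a 95% interval of -0.10 to 0.41 (edgeR adjusted p = 0.28). Ccs was called higher without shCtrl replicate 1 (0.34, edgeR adjusted p = 0.037), the library in which it was higher of the 2 controls. Neither interval shows that these genes had the same level in both groups. The ratio of Atox1 to Ccs counts, 1.26 and 1.77 in shCtrl and 1.59 and 1.27 in shUSP9X, overlapped between the groups.

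Both export ATPase genes were lower. Atp7a (ENSMUSG00000033792, chromosome X, 106027276 to 106124926), which supplies copper to secreted enzymes in most tissues, had 28.8 and 26.1 CPM in shCtrl and 17.1 and 17.4 CPM in shUSP9X. The shUSP9X libraries lay close together and well below the controls. The log2 fold change of -0.67 had a standard error of 0.10 (edgeR adjusted p = 2.3e-06). It was called in the same direction under all 15 alternatives, between -0.73 and -0.29, with the smallest change once the GC content and length trends were removed. Atp7b (ENSMUSG00000006567, chromosome 8, 21992785 to 22060305), the ATPase that exports copper from hepatocytes, was expressed at the edge of detection, with 33 and 36 counts in the shCtrl libraries and 9 and 12 in the shUSP9X libraries. In CPM these were 1.90 and 2.28 against 0.455 and 0.712, with 3 counts standing for 0.152 to 0.190 CPM. Its log2 fold change was -1.84 with a wide 95% interval of -2.73 to -0.96 (edgeR adjusted p = 4.9e-04). Atp7b reached 10 counts in both libraries of shCtrl only, so it entered the test through the group in which it was high. Without shUSP9X replicate 2, the library with liver transcripts, the log2 fold change was -2.17 (edgeR adjusted p = 0.0032). Counts of Atp7a were 15.1 and 11.4 times those of Atp7b in shCtrl and 37.6 and 24.4 times in shUSP9X. These ratios did not overlap between the groups, although with 2 libraries against 2 the exact permutation test cannot go below p = 0.333 (two-sided), which it gave here.

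The metallothionein genes lie 5513 bases apart on chromosome 8, and Mt1 fell while Mt2 was not called. Their bases before the RefSeq start are shown because both genes are textbook targets of MTF1 and Slc30a1, the plasma membrane zinc exporter, is another known target. Slc30a1 was chosen with its fall known. The zinc and manganese exporter gene Slc30a10, searched in the same way, held 3 matches and had 0 counts in all libraries. The sequences are from RefSeq (GRCm38.p6, plus strand), the 250 bases before the start, with each match to the metal response element core in capitals. The core was searched as TGCACNC and TGCGCNC on both strands. Mt1, at chr8:94178839-94179088, Mt2, at chr8:94172368-94172617, and Slc30a1, at chr1:191906531-191906780, read:
Mt1: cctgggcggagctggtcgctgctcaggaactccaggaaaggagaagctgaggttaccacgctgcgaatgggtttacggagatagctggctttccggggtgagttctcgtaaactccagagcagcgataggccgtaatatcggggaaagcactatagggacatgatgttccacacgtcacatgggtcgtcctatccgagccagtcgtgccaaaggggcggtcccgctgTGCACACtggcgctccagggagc
Mt2: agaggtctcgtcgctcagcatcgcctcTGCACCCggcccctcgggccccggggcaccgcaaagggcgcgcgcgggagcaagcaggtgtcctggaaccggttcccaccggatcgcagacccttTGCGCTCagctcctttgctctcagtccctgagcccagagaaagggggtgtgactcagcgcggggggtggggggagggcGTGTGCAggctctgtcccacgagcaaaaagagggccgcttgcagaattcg
Slc30a1: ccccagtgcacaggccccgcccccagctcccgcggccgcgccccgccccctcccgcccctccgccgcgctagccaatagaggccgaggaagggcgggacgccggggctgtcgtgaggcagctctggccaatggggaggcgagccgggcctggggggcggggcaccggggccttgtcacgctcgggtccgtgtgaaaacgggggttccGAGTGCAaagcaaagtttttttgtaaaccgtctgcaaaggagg
Mt1 held 1 match, which begins 23 bases before the start, Mt2 held 3 and Slc30a1 held 1. Among 32851 RefSeq promoters of this length, 21.4% held at least 1 match and 1.26% at least 3. Sequences were found for 8 of the 9 genes, all but Ccs. Slc31a2 and Atp7b held 1 match each, Atp7a 2, and Slc31a1, Atox1 and Mtf1 none. GENCODE also lists Mt1 transcripts that start at 94179211 and 94179241, an Mt2 transcript that starts at 94172860 and an Slc30a1 transcript that starts at 191907256, all beyond these windows, so elements next to those starts are not in them.

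Mt1 (ENSMUSG00000031765, chromosome 8, 94179082 to 94180327) had 29.2 and 27.3 CPM in shCtrl and 22.3 and 19.5 CPM in shUSP9X. All shUSP9X values were below all shCtrl values. The log2 fold change of -0.43 had a standard error of 0.10 (edgeR adjusted p = 4.7e-04), a level 0.741 of that in shCtrl (95% interval 0.642 to 0.855). At the study's cutoff of a 1.5-fold change Mt1 was not called. It was called at an adjusted p below 0.05 under all 15 other alternatives, from -0.77 without the GC content and length trends to -0.34 without shUSP9X replicate 2 (edgeR adjusted p = 0.017). Mt2 (ENSMUSG00000031762, chromosome 8, 94172664 to 94173568) was weaker, with 79 and 53 counts in the shCtrl libraries and 81 and 72 in the shUSP9X libraries. In CPM these were 4.56 and 3.35 against 4.1 and 4.27, so the groups overlapped, and the shCtrl libraries differed from each other by more than the groups did. Its log2 fold change was 0.08 with a 95% interval of -0.41 to 0.56 (edgeR adjusted p = 0.79), an interval that reaches nearly to the value of Mt1. Counts of Mt1 were 6.42 and 8.13 times those of Mt2 in shCtrl and 5.43 and 4.57 times in shUSP9X. The ratios did not overlap, and the exact permutation test gave the smallest two-sided p that 2 libraries against 2 allow, 0.333. The longest coding transcripts of Mt1 and Mt2 share no stretch longer than 20 bases. An antisense gene, Gm45774, covers 73.5% of the exonic bases of Mt2, and the counting is not stated to use strand, so its reads cannot be told apart from those of Mt2. The other metallothionein genes of the mouse, Mt3 and Mt4, had 0 counts in all libraries.

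Mtf1 (ENSMUSG00000028890, chromosome 4, 124802104 to 124849800) gave opposite directions in both deposited units. Its estimated counts were 374 and 318 in shCtrl and 467 and 398 in shUSP9X, which is 21.6 and 20.1 CPM against 23.6 and 23.6 CPM. By counts both shUSP9X libraries were above both controls, as for 41.2% of all genes, and the log2 fold change of 0.18 did not pass the test (95% interval -0.03 to 0.39, edgeR adjusted p = 0.12). With the GC content and length trends taken out of the counts, Mtf1 was called higher (0.39, edgeR adjusted p = 0.0012). By FPKM, the authors' value per transcript length, Mtf1 had 6.55 and 5.0 in shCtrl and 3.98 and 3.81 in shUSP9X, so that both shUSP9X libraries were below both controls (log2 fold change -0.54 on the log2(FPKM + 0.1) scale, limma adjusted p = 0.021). Of 11448 tested genes, 0.0961% (11 genes) were higher by CPM and lower by FPKM with no overlap in either. Counts per FPKM follow the transcript length that the FPKM was scaled by, and were set relative to the median gene of each library. For Mtf1 this value was 1.23 and 1.51 in shCtrl and 2.24 and 2.32 in shUSP9X, 1.67 times as high. For the other 8 genes it changed by 1.02 to 1.09 times. Over 9860 genes with an FPKM of at least 1 in every library the median ratio was 1.02, and in 0.152% (15 genes) it was over 1.5. A change of over 1.5-fold in either direction was found in 0.487% (48 genes). GENCODE M21 lists 4 coding transcripts of Mtf1, from 636 to 7631 nt. The fit without the trends used 7631 nt in every library. Lrrc8b, a gene with a shorter transcript of 6726 nt, had means of 2.49 in shCtrl and 2.55 in shUSP9X, above Mtf1. The call of Mtf1 at 0.39 was thus fitted with a length that its counts per FPKM do not follow in either group. On the opposite strand 1110065P20Rik shares 721 exonic bases with Mtf1, 8.09% of its exonic bases, and was counted 152 and 151 times in the shCtrl libraries and 103 and 90.5 times in the shUSP9X libraries (log2 fold change -0.79, edgeR adjusted p = 2.2e-04). Without strand, reads from the shared bases cannot be told apart, and the part of this overlap in the values of Mtf1 was not tested.

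**Figure D2:**
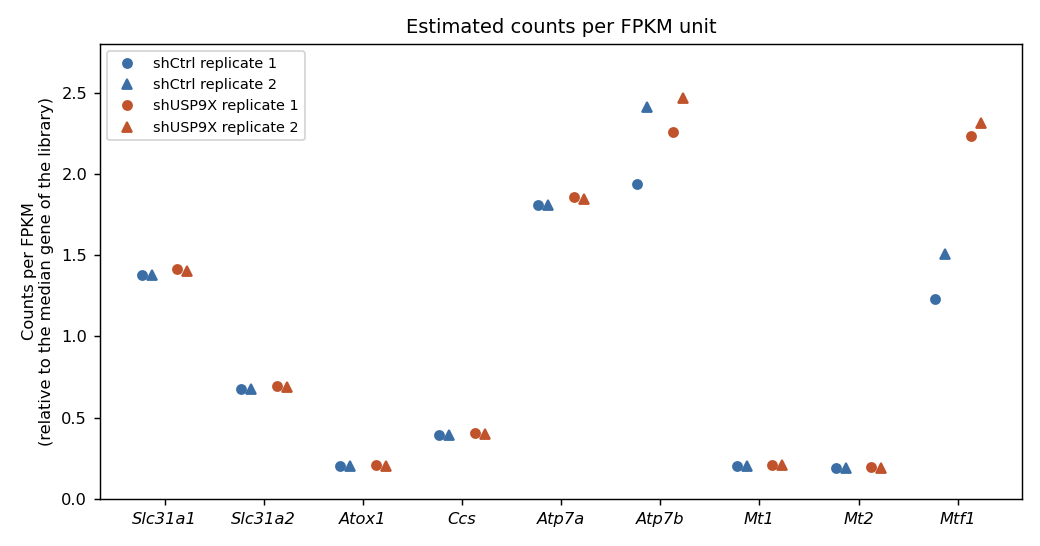
Estimated counts divided by FPKM (vertical axis, relative to the median gene of each library) for the 9 genes in each library, with blue for shCtrl, orange for shUSP9X, circles for replicate 1 and triangles for replicate 2. Mtf1 moves from 1.23 and 1.51 to 2.24 and 2.32, whereas the libraries of Slc31a1, Slc31a2, Atox1, Ccs, Atp7a, Mt1 and Mt2 lie together. Atp7b varies between libraries on 9 to 36 counts.

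Per transcript length, Mt1 and Atox1 were the most abundant of the 9 genes. In shCtrl the mean FPKM was 51.6 for Mt1, 44.1 for Atox1, 22.8 for Slc31a1, 15.1 for Ccs and 7.81 for Mt2, and these neighbours in the order did not overlap between libraries. Slc31a2, Mtf1 and Atp7a followed at 5.79, 5.77 and 5.66 FPKM, a trio whose ranges overlapped, and Atp7b was last at 0.360. In shUSP9X the order began with Atox1 at 46.2 FPKM, ahead of Mt1 at 37.6, with no overlap. Slc31a1 (19.3), Ccs (16.6) and Mt2 (8.11) came next, then Mtf1 (3.90), Slc31a2 (3.69) and Atp7a (3.49), with Atp7b at 0.0920.

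Fold changes across all genes followed GC content in these libraries, and the 9 genes span much of that range. The fit that removes the trends also takes in transcript length, whose part is not shown here by itself. Slc31a1 (43.7% GC) and Atp7a (44.6%) lie in bins 2 and 3 when all genes are divided by GC content into 10 bins of equal size, whose median log2 fold changes were -0.41 and -0.19. Slc31a1, at -0.21, was thus above the median of its bin and Atp7a, at -0.67, below it. Mt1 (52.9%) and Atp7b (53.5%) lie in bin 7, where the median was 0.18, and both went against it. Slc31a2 and Mtf1 lie in bin 5, with a median of 0.06, and Mt2, Ccs and Atox1 in bins 8, 9 and 10, with medians of 0.25, 0.25 and 0.18. With each library's trend on GC content and length removed, 4 of the 9 genes were lower (Slc31a2, Atp7a, Atp7b and Mt1) and 2 higher (Slc31a1 and Mtf1, 0.17 and 0.39), beside 27.5% and 35.8% of all genes. The length used for Mt1 was 1085 nt, its longest coding transcript, although its counts per FPKM (0.205 in shCtrl) were close to those of Mt2 (0.189), whose transcript has 511 nt. For Mtf1, too, the length used, 7631 nt, was longer than its counts per FPKM follow.

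**Figure D3:**
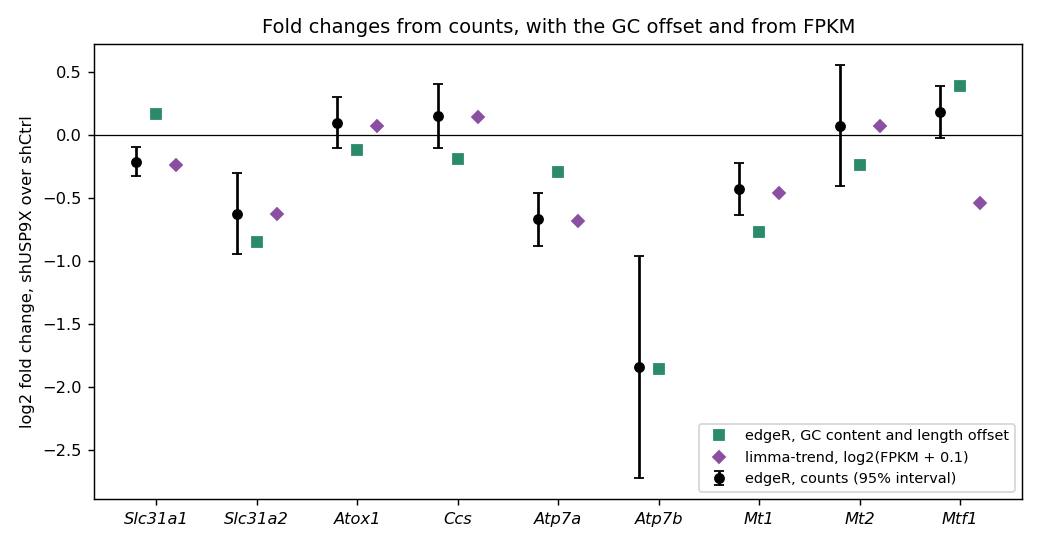
Log2 fold changes (vertical axis, shUSP9X over shCtrl) of the 9 genes from edgeR on counts (black, with 95% intervals), from edgeR with the GC content and length offset (green squares) and from limma on log2(FPKM + 0.1) (purple diamonds; Atp7b, under a mean FPKM of 1, has none). The intervals of Slc31a1, Slc31a2, Atp7a, Atp7b and Mt1 lie below 0, Slc31a1 turns to 0.17 with the offset, and Mtf1 turns to -0.54 by FPKM.

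**Figure D4:**
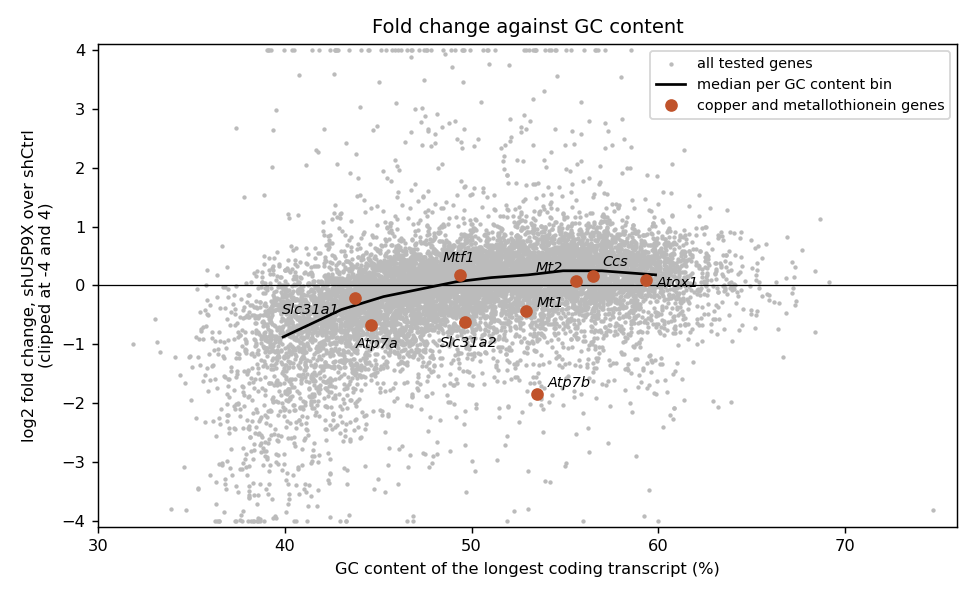
Log2 fold change (vertical axis, clipped at -4 and 4) against the GC content of the longest coding transcript in percent (horizontal axis) for all tested genes (grey), with the median per GC content bin (line) and the 9 genes (orange). Slc31a1 lies above the line and Atp7a, Slc31a2, Mt1 and Atp7b below it.

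The genes beyond these 9 were taken from lists written by hand, and the counts below read against 33.6% lower and 33.8% higher among all genes, or, with the trends removed, against 27.5% and 35.8%. Genes that bring copper to cytochrome c oxidase in mitochondria were higher in 5 of 8 cases and lower in 0, with a median log2 fold change of 0.32. Cox19 rose from 19.3 ± 2.03 to 33.3 ± 3.97 CPM (log2 fold change 0.79, edgeR adjusted p = 2.3e-07) and Sco2, a copper chaperone of the oxidase, from 14.5 ± 1.63 to 23.2 ± 0.0164 CPM (0.68, edgeR adjusted p = 6.7e-06; mean ± SD, n = 2 in each group). Once those trends in GC content and length were removed, 4 of the 8 were higher and 0 lower, and the median was 0.08. The mitochondrially encoded oxidase subunits that hold the copper, mt-Co1 and mt-Co2, were lower, at -0.71 and -1.17, and the first of them was not called with the trends removed (-0.05).

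Of 17 genes for copper enzymes and copper-binding proteins, 13 were tested, 8 were lower and 3 higher, with a median of -0.21. Lox, which crosslinks collagen and receives its copper in the secretory pathway, fell from 351 ± 4.85 to 214 ± 1.12 CPM (-0.71, edgeR adjusted p = 5.9e-15). Cp, which encodes the plasma copper carrier ceruloplasmin, fell from 194 ± 2.73 to 87.9 ± 0.371 CPM (-1.14, edgeR adjusted p = 2.3e-17). Sod3, the secreted copper-zinc superoxide dismutase, rose from 57.2 ± 2.24 to 154 ± 0.671 CPM (1.43, edgeR adjusted p = 2e-18). Lox, Cp and Sod3 kept their direction with the trends removed (-0.27, -0.44 and 1.29). In the list as a whole 6 were then lower and 3 higher, with a median of -0.09. App, the gene of the copper-binding amyloid precursor protein, turned from -0.13 to 0.51, called in both directions, and Sod1, the cytosolic copper-zinc superoxide dismutase, lost its call (0.25 to -0.09, edgeR adjusted p = 0.097). The length used for App was 8167 nt, although its counts per FPKM (1.21 in shCtrl) were close to those of Loxl1 (1.22), whose transcript has 3297 nt. Dbh and Heph were at 0, and Tyr, the pigment enzyme, had 8.14 counts in shCtrl replicate 2, the library with Tyrp1 and Dct, and at most 2 in the others.

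Among 5 genes of copper trafficking and regulation 1 was lower and 1 higher (median 0.00). The lower gene was Xiap, an inhibitor of caspases that also acts on copper proteins, at -1.23, and it turned to 0.38 with the trends removed. The higher gene was Cutc, at 0.44, which was then not called (0.17), and the list then had 1 lower and 2 higher genes. Of 4 genes for metalloreductases and other metal uptake, 3 were tested, 1 was lower and 2 higher (median 0.58). The lower gene, Steap2, another reductase, was at -0.23 and turned to 1.33 with the trends removed (edgeR adjusted p = 8.9e-19), when 0 of the 3 were lower and 3 higher (median 1.33). The length used for Steap2 was 10408 nt, its longest coding transcript. Its counts per FPKM (1.63 in shCtrl) lay below those of Lox (1.74), whose transcript has 4741 nt. The value of 1.33 was thus fitted with a length that the counts per FPKM of Steap2 do not follow. Steap3, a reductase for iron and copper, rose from 6.54 ± 0.682 to 18 ± 0.483 CPM (1.46, edgeR adjusted p = 5.7e-10), and Slc11a2, the divalent metal transporter, from 83.7 ± 0.897 to 125 ± 1.04 CPM (0.58, edgeR adjusted p = 1.1e-10).

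Cuproptosis is a form of cell death in which copper binds lipoylated mitochondrial enzymes. Of 12 genes linked to it, 11 were tested, 2 were lower and 7 higher, with a median of 0.27. Fdx1, the ferredoxin that makes lipoylation possible, rose from 13.0 ± 2.51 to 19.3 ± 0.124 CPM (0.57, edgeR adjusted p = 2.9e-04). The lipoylated protein gene Gcsh rose by 0.77 and the lipoyl transferase gene Lipt1 also by 0.77, while Pdhb and Dlst rose by 0.35 each. Dbt fell by 0.67. Dld fell by 0.36, but turned to 0.30 with the trends removed. In that fit 1 of the 11 genes was lower and 9 were higher.

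Zinc transporters of both families were measured, since zinc drives MTF1. Of 10 Slc30 genes, which move zinc out of the cytosol, 6 were tested, 5 were lower and 1, Slc30a6, higher (0.26), with a median of -0.34. Slc30a1 was counted 707 and 698 times in the shCtrl libraries and 480 and 394 times in the shUSP9X libraries, a fall from 42.5 ± 2.39 to 23.8 ± 0.636 CPM (-0.83, edgeR adjusted p = 3.3e-09). It stayed lower with the trends removed (-0.56), whereas Slc30a4 and Slc30a9, at -0.70 and -0.47, turned to 0.19 and 0.03. With the trends removed 1 of the 6 was lower and 3 were higher, and the median turned to 0.11. Of 14 Slc39 genes, which bring zinc into the cytosol, 11 were tested, 2 were lower and 5 higher (median 0.16). Slc39a8 fell from 11.3 ± 0.0127 to 5.04 ± 0.683 CPM (-1.17, edgeR adjusted p = 7e-07), and Slc39a10, at -0.38, turned to 0.09 with the trends removed. Slc39a6, Slc39a7 and Slc39a11 rose by 0.28, 0.21 and 0.27, but Slc39a7 and Slc39a11 were not called after the trends were removed (-0.04 and 0.08), when 2 of the 11 were lower and 4 higher. Among the 5 higher genes is Slc39a4, with 1 and 5 counts in the shCtrl libraries against 15 and 13, which reached 10 counts in shUSP9X only and so entered the test through the group in which it was high.

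Platinum drugs also enter through organic cation transporters and volume-regulated anion channels. Of 11 genes listed for platinum transport outside the copper system, exporters included, 6 were tested, 1 was lower and 4 higher, with a median of 0.24. The organic cation transporter genes Slc22a2 and Slc22a3 were at 0 in all libraries, the extruder genes Slc47a1 and Slc47a2 had at most 1 count in any of them, and Abcc2 had at most 8. The anion channel subunit Lrrc8d, named with Lrrc8a in cisplatin uptake, rose from 58.2 ± 1.96 to 81.4 ± 2.8 CPM (0.48, edgeR adjusted p = 8.5e-08). Lrrc8c rose by 0.19, Lrrc8a by 0.30 (edgeR adjusted p = 0.014) and Tmem205 by 0.95, from 3.11 ± 0.160 to 6.03 ± 0.371 CPM. Lrrc8b fell from 55.7 ± 3.21 to 28.6 ± 1.71 CPM (-0.96, edgeR adjusted p = 3.1e-11). With the trends removed Lrrc8b was still lower (-0.40) and Lrrc8a was not called. Lrrc8a also lost its call by DESeq2 (adjusted p = 0.063), by limma on FPKM (adjusted p = 0.14), without shUSP9X replicate 1 (edgeR adjusted p = 0.056) and without shCtrl replicate 1 (0.12, edgeR adjusted p = 0.29), and it was at 0.50 without shCtrl replicate 2. Lrrc8c was not called by limma on FPKM (adjusted p = 0.11) and was at 0.68 with the trends removed.

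Metallothionein genes also answer to glucocorticoids. Of 8 glucocorticoid-responsive genes 7 were tested, 3 were lower and 2 higher (median 0.00). Klf9 fell from 94.8 ± 3.80 to 43.2 ± 1.01 CPM (-1.14) and Dusp1 from 32.1 ± 2.73 to 15.5 ± 0.913 CPM (-1.04), whereas Per1 rose by 0.87 and Sgk1 by 0.24. The receptor gene Nr3c1 was lower at -0.91 and was not called with the trends removed (-0.05). Fkbp5, a sensitive target of the receptor, had 430 ± 20.8 and 430 ± 1.79 CPM and was not called, although it was lower with the trends removed (-0.12, edgeR adjusted p = 0.0088).

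**Figure D5:**
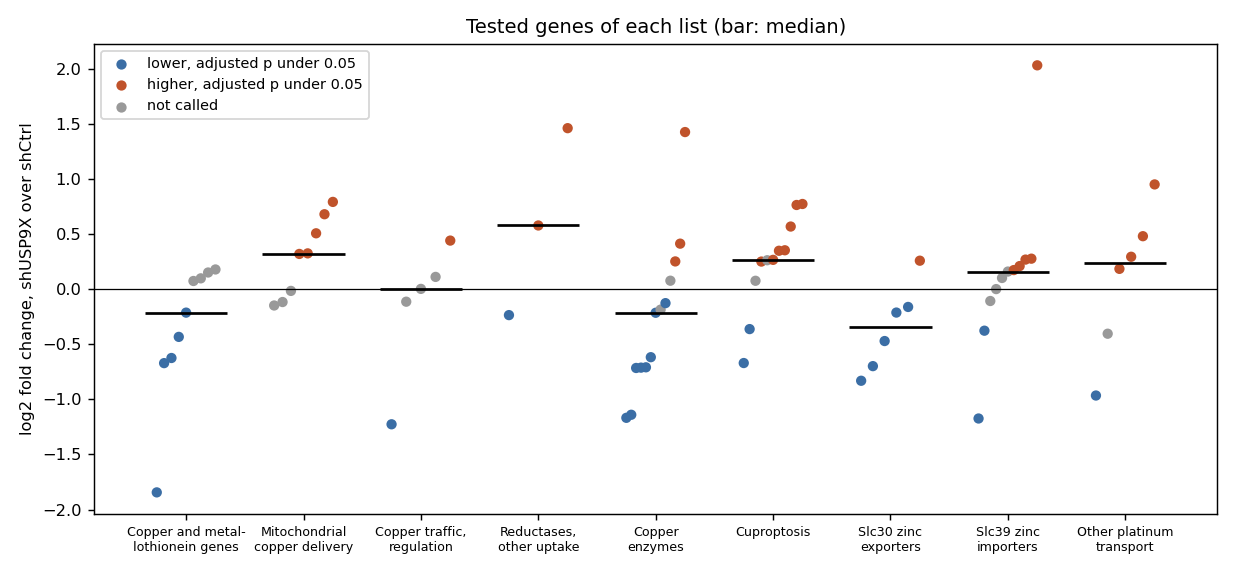
Log2 fold changes (vertical axis, shUSP9X over shCtrl) of the 9 genes and of the tested genes of the copper, cuproptosis, zinc and platinum lists (horizontal axis; the cell marker and glucocorticoid lists are not drawn), with blue for lower and orange for higher genes at an adjusted p under 0.05, grey for genes not called and bars for medians. The medians run from -0.34 for the Slc30 zinc exporters (0.11 with the GC content and length offset) to 0.58 for the metalloreductases and other uptake genes, and of the lists drawn the mitochondrial copper delivery genes hold no lower gene and the 9 genes no higher one.

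Of the 9 genes, Atp7b had the largest fold change. The 3 genes with a mean of at least 4 log2 CPM whose centred log2 CPM lay nearest to its own over the 4 libraries were Ptpn4, Arid4a and Ralgapa1 (Euclidean distances 0.173, 0.280 and 0.283), with log2 fold changes of -1.74, -1.53 and -1.71. They were chosen for that likeness, which fixes their fold changes near that of Atp7b and supports nothing about it. Atp7b itself rests on 33 and 36 against 9 and 12 counts and passed the filter through shCtrl only, and Ptpn4 was at -0.07 with the trends removed.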

How the data were processed

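Poly(A) mRNA of 4 ID8 libraries was sequenced by the authors on an Illumina NovaSeq instrument and, by the paper's methods, mapped to GRCm38. The submitters' processing notes name fastp 0.18.0, Bowtie2 2.2.8, HISAT2, StringTie 1.3.1 and RSEM. The annotation release and strand setting are not given in the sources used here. The authors deposited estimated counts per gene, not normalized, of which 6.395 to 6.69% per library were not whole, and FPKM values, scaled by them for transcript length and depth. Estimated counts were rounded, filtered with filterByExpr, TMM-normalized and tested with edgeR 4.0.16 (R 4.3.3; quasi-likelihood test, no block, Benjamini-Hochberg adjustment over 11448 genes). The test had been planned for counts as deposited. Standard errors were taken as the fold change over the root of F. CPM used the same scaling, and 3 counts were the floor of detection in a library. Such floors cover counting error only. Libraries of a group differed by more than sampling noise (chi-square per gene 3.37 in shCtrl, 2.09 in shUSP9X).

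Alternatives were DESeq2 1.42.0, other scalings and filters, limma 3.58.1 on log2(FPKM + 1) and log2(FPKM + 0.1) for a mean FPKM of at least 1, the study's cutoff, a replicate block, an offset that took out, library by library, a loess fit (span 0.3) against GC content and length of the longest coding transcript (GENCODE M21, known for 99.8% of tested genes), and each library left out. Procedures were tested on simulated data with and without a trend in GC content. No trend in length was simulated, so the length part of the offset was not tested. The 9 genes, the lists and the tests were chosen with earlier results of these data known. Named were Usp9x, the 9 genes, all called genes of the platinum and glucocorticoid lists, up to 5 rises and 5 falls from each other list (copper handling, cuproptosis, zinc transport, cell markers), and the 3 genes nearest to the most changed of the 9. Others were named after their values were seen. Some genes of these lists are not reported here.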

Additional observations from a re-analysis of the deposited data

How the results depend on the processing

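The direction and call of the 9 genes gave 132 values under the alternatives, the study's cutoff left out. Of these 117 kept direction and side of the threshold, 1 lost the call, 3 gained one and 11 turned. With the GC content and length offset Slc31a1 turned to 0.17, Atox1 to -0.12, Ccs to -0.19 and Mt2 to -0.24, and in the other lists, among others, Steap2 turned from -0.23 to 1.33, Slc30a7 from -0.16 to 1.05 and App from -0.13 to 0.51, all called lower and then higher, and Krt19 from 0.12 to -0.17. Xiap turned to 0.38, Dld to 0.30, Slc39a7 to -0.04, Slc30a4 to 0.19, Slc30a9 to 0.03 and Slc39a10 to 0.09. For Slc31a1, Atox1, Ccs, Mt2 and the genes from Xiap to Slc39a10, the offset with a replicate block gave the same values, except -0.23 for Mt2. Without shCtrl replicate 2, Mt2 turned to -0.12, within -0.12 to 0.33 over the libraries left out. The offset took the longest coding transcript of each gene. For some genes, among them Steap2, App and Mtf1, this length was longer than their counts per FPKM follow. Mtf1 was called higher with the offset (0.39), and turned to -0.46 on log2(FPKM + 1) and to -0.54 on log2(FPKM + 0.1). The cause was not tested. Of the 9 genes 5 were called, against 3 at the study's cutoff, all lower, and at that cutoff Slc31a1 and Mt1 were not called. With the offset 2 were higher, as with the block and offset (2), and with a library left out 0 to 1 were. Over all genes 7707 were called (3843 lower, 3864 higher), against 3376 (2143 and 1233) at the study's cutoff. Upper quartile scaling moved the median of all genes to 0.032, and library size alone to -0.029, the widest shifts among the scalings. With a replicate block alone 7665 genes were called (3810 lower, 3855 higher) and 5 of the 9. Same-numbered libraries did not deviate together (r = -0.045 across genes), and the block changed no call of the 9 genes. At least 10 counts in every library left out Atp7b. Groups of 1 library were assumed to vary like the rest. Depth limits Atp7b, Mt2 and Slc39a4, which had at most 36, 81 and 15 counts.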
